A study of Mus musculus with 6 samples.

Results

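The genes described here are interferon-induced antiviral effectors: the IFIT genes Ifit1, Ifit2, Ifit3 and Ifit3b, the viperin gene Rsad2 with its neighbour Cmpk2, and Rtp4, Bst2, Mx1 and Mx2. They were taken by symbol from a list of 10 names, which was drawn up with earlier results of these libraries known. Of these, 8 of the 18227 genes in the expression table were used, and Mx1 and Mx2 were not analysed here. RNA had been sequenced from corneas of 6-week-old male C57BL/6 mice kept under specific-pathogen-free conditions, 3 libraries from Muc13-/- mice (KO 1 to 3) and 3 from wild-type mice (WT 1 to 3). Muc13 encodes a transmembrane mucin of epithelial surfaces. The labels do not say which part of Muc13 was deleted, or whether a library came from 1 mouse or several, so the spread between libraries may be partly technical. Values are given as estimated read counts per gene, as TPM, which correct for transcript length and library total, and as CPM, which are counts scaled to the library total and by the trimmed mean of M values (TMM). Wherever 3 values are given for a genotype, they stand in the order of replicates 1, 2 and 3.

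Type I and type III interferons bind receptors that activate the kinases JAK1 and TYK2, and the transcription factors activated in this way bind interferon-stimulated response elements (ISREs) in the promoters of their target genes. IFIT proteins bind RNA, and IFIT1 recognises RNA whose cap lacks a methyl group and blocks its translation. Viperin, the product of Rsad2, is a radical SAM enzyme that turns CTP into a nucleotide that ends viral RNA chains, and Cmpk2 is a mitochondrial nucleotide kinase encoded beside it. RTP4 inhibits the replication of some RNA viruses. BST2, or tetherin, holds budding enveloped viruses at the cell surface.

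In GRCm38 the 8 genes lie at 4 places, and all are annotated as protein coding. The IFIT genes follow each other on the plus strand of chromosome 19, with Ifit2 at chr19:34550694-34576419, Ifit3 at chr19:34583531-34588731, Ifit3b at chr19:34607970-34613401 and Ifit1 at chr19:34640871-34650009. Rsad2 (chr12:26442746-26456452, minus strand) and Cmpk2 (chr12:26469204-26479837, plus strand) stand head to head. Bst2 lies at chr8:71534255-71537456 on the minus strand. Rtp4 lies on chromosome 16, as Muc13 does, and its annotated locus (chr16:23520291-23614222, plus strand, overlapping Masp1) ends 10.2 Mb before the start of Muc13.

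Promoter windows were taken from RefSeq (GRCm38.p6), reaching 250 bases before to 50 bases after the annotated start. Windows were found for 7 of the 8 genes, not for Rtp4, with 2 windows for Ifit2. They were searched on both strands for the ISRE core, GAAA followed after any 2 bases by GAAA (TTTC, 2 bases, TTTC on the other strand), and for the gamma-activated sequence, GAS, TTCNNNGAA, which reads the same on both strands. The first set shows Ifit1 and Ifit2, from the ends of the IFIT cluster, and the neighbours Rsad2 and Cmpk2. Ifit1 and Rsad2 hold an ISRE core match, and Ifit2 and Cmpk2 do not. Ifit3 and Ifit3b, which lie between Ifit2 and Ifit1, and Bst2 also hold matches and are in the second set. ISRE core matches are in capitals, and each sequence is written 5′ to 3′ in the direction of the gene.
Ifit1 (chr19:34640639-34640938, plus strand): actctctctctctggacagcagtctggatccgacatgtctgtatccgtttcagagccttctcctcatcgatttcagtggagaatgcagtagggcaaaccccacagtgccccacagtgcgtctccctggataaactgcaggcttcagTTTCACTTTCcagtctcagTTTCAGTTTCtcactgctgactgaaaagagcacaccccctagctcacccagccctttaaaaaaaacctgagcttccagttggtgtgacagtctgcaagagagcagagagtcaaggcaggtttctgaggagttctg
Ifit2, first start (chr19:34550444-34550743, plus strand): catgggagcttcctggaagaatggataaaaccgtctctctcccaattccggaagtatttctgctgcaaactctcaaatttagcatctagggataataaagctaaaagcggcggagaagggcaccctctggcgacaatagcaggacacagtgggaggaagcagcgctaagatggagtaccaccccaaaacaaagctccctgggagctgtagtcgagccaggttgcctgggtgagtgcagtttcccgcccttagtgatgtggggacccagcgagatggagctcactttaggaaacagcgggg
Rsad2 (chr12:26456403-26456702, minus strand): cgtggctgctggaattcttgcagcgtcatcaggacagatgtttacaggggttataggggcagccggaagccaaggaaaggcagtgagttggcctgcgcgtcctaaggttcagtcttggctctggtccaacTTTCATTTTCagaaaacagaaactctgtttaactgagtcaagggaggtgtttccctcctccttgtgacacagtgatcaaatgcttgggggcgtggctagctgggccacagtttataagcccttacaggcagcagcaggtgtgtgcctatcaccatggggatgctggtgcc
Cmpk2 (chr12:26468965-26469264, plus strand): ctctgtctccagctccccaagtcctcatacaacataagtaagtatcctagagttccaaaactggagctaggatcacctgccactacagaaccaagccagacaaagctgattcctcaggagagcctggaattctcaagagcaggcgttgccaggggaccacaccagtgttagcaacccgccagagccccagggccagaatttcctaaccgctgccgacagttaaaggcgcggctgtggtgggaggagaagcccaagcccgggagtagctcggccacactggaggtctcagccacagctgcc

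The second set gives, for the 3 other genes with a match, the matched stretch with 10 bases on either side. The Ifit3 and Ifit3b stretches are shown together because they are the same in every base. In Bst2 a pair of matches overlaps.
Ifit3 (chr19:34583363-34583426, plus strand): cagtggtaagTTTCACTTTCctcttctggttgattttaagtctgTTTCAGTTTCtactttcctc
Ifit3b (chr19:34607759-34607822, plus strand): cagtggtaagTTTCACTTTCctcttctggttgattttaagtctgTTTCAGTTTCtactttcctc
Bst2 (chr8:71537577-71537612, minus strand): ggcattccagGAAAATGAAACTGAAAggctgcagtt

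An ISRE core was present in 5 of the 8 promoter windows (62.5%), those of Ifit1, Ifit3, Ifit3b, Rsad2 and Bst2, and in 3.44% of the 32851 windows of all genes. Counted back from the annotated start, the matches began at bases -104 and -85 in Ifit1, -156 and -122 in Ifit3, -188 and -154 in Ifit3b, -120 in Rsad2, and -130 and -124 in Bst2. The GAS motif was present in the Bst2 window and the first Ifit2 window, 25% of the windows against 8.30% of all. In Bst2 it shares bases with the first ISRE core. Neither window of Ifit2 and not the Cmpk2 window held the ISRE core, which says only that these letters are not in these windows. A match is a description of the sequence.

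**Figure D1:**
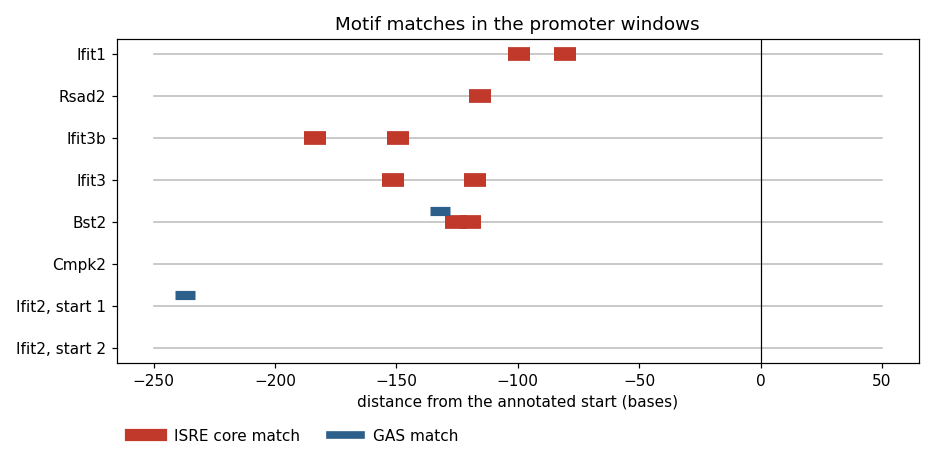
Positions of ISRE core matches (red) and GAS matches (blue, raised) in the promoter windows, with the distance from the annotated start in bases on the horizontal axis. The matches of Ifit1 begin at -104 and -85, and Cmpk2 has neither motif.

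The libraries held 14100000 to 15500000 estimated counts each and differed widely in tissue content. Muc13 had 9, 4 and 2 counts in KO corneas, against 18, 21 and 9 in WT corneas, so KO 1 and WT 3 had the same count. Corneal epithelium markers (10 genes, among them Krt12 and Krt5) were present in every library and summed to 34090, 34310 and 5881 CPM in KO corneas, against 113699, 88939 and 27313 CPM in WT corneas. Their log2 fold change was below 0 in 10 of the 10, with a median of -1.61, and the groups overlapped for each. Retina markers (12 genes) summed to 21583 to 37547 CPM in the knockout libraries and to 73.1, 258 and 24273 CPM in WT corneas. Skeletal muscle markers (8 genes) summed to 74.4, 781 and 397 CPM in KO corneas, against 3370, 2633 and 264 CPM in WT corneas, with a log2 fold change below 0 in 8 of the 8 and a median of -2.45. Lens markers (9 genes) ranged from 417 to 71484 CPM in KO corneas and from 222 to 38778 CPM in WT corneas. The part of corneal epithelium, retina, muscle and lens in the values of the antiviral genes was not tested. WT 3 was the wild-type library nearest to KO 1 and KO 2 in the epithelium and retina sums, and each gene is also given against WT 3 alone. In whole-tissue RNA, fewer cells of a type and less RNA per cell cannot be told apart.

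Of the 8 genes, Ifit1, Rtp4 and Rsad2 stood lowest in the knockout corneas relative to wild type, at 0.188, 0.193 and 0.203 of the wild-type level in the fitted ratio. Ifit3b followed at 0.329 and Ifit3 at 0.430. Cmpk2 and Bst2 stood at 0.623 and 0.597, with overlapping groups, and Ifit2 was closest to its wild-type level. The genes had been chosen with this contrast known, so these values are a description, and no test of them is claimed. In CPM, every knockout library lay below every wild-type library in 5 of the 8 genes, where 5.51% of the 14983 genes tested did so, and the log2 fold change was below 0 in 8 of the 8 genes, against 48.5% of all genes tested. The median log2 fold change was -1.41, against 0.02 over all genes tested. Nothing is read from these shares, since the genes were chosen by that contrast.

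**Figure D2:**
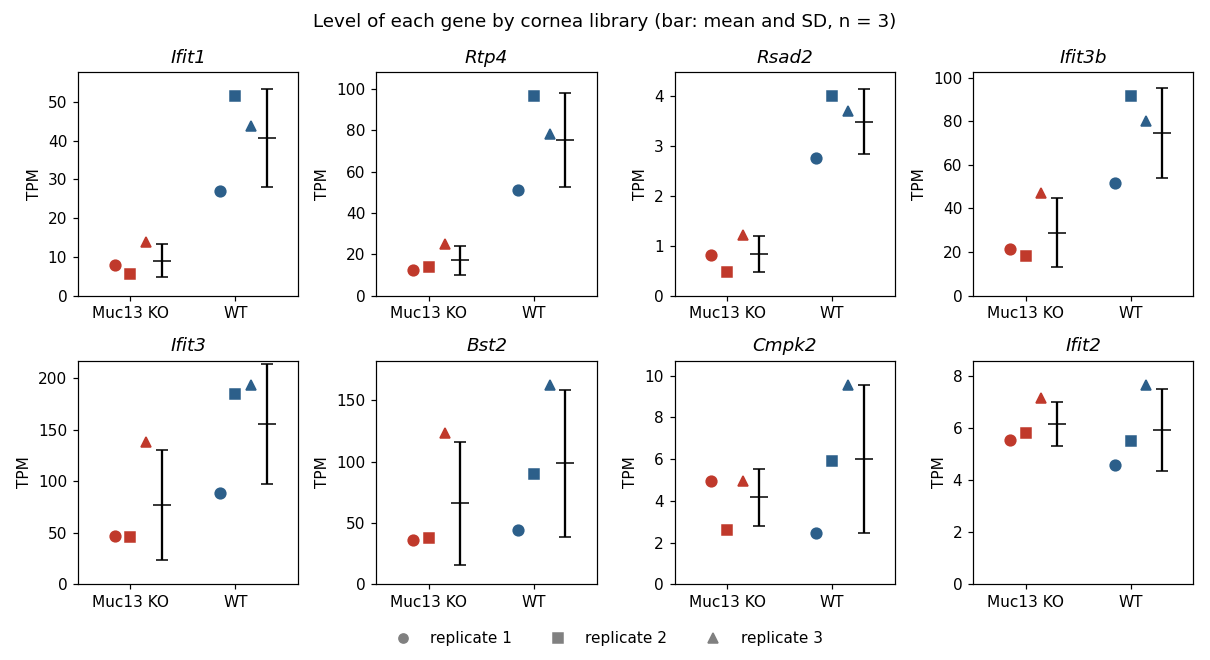
TPM of each gene in the 3 Muc13 knockout (red) and 3 wild-type (blue) libraries, with a symbol for each replicate number and bars for the mean and SD. Ifit1, Rtp4, Rsad2 and Ifit3b show separate groups, and Ifit3, Bst2, Cmpk2 and Ifit2 overlap in TPM.

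Ifit1, the sensor of incompletely capped RNA, was at 7.86, 5.48 and 13.8 TPM in KO corneas, against 26.96, 51.6 and 43.7 TPM in WT corneas. The highest knockout library was at 0.510 of the lowest wild-type library. The means were 9.03 ± 4.26 TPM in KO corneas, against 40.8 ± 12.6 TPM in WT corneas (SD, n = 3 each), and the log2 fold change from the count fit was -2.41 (SE 0.38). In counts, Ifit1 had 175, 153 and 362 in KO corneas, against 883, 1398 and 1088 in WT corneas. The estimated count was not whole in 2 of the 6 libraries, as arises where reads are shared with another gene, and 7.06% of the 50-base words of its transcript also occur in Ifit1bl2.

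Rtp4, the inhibitor of RNA virus replication, was at 12.3, 13.9 and 25.0 TPM in KO corneas, against 51.2, 96.8 and 78.3 TPM in WT corneas. As with Ifit1, no library of one genotype reached the other, and KO 3 was the highest of the knockout libraries. The means were 17.1 ± 6.91 TPM in KO corneas, against 75.4 ± 22.9 TPM in WT corneas (SD, n = 3 each), with a log2 fold change of -2.37 (SE 0.37). Of the neighbours within 200 kb of Rtp4, the glycosyltransferase gene St6gal1 was at -0.33 (SE 0.28) and the overlapping complement protease gene Masp1 at -0.34 (SE 0.57), and both had overlapping groups.

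Rsad2, which encodes viperin, was the least abundant of the 8 genes, at 0.820, 0.480 and 1.21 TPM in KO corneas, against 2.75, 4.00 and 3.70 TPM in WT corneas. It rested on 27, 20 and 48 counts in KO corneas, against 133, 160 and 136 counts in WT corneas. The groups were separate at this depth, and the log2 fold change was -2.30 (SE 0.42). Its partner at the locus, Cmpk2, was at 4.97, 2.59 and 4.97 TPM in KO corneas, against 2.48, 5.91 and 9.57 TPM in WT corneas. WT 1 was the lowest library of all for Cmpk2 in TPM, so its groups overlapped, and the log2 fold change was -0.68 (SE 0.40).

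Because both genes of a locus are measured in the same library, their ratio does not depend on the scaling between libraries. The ratio of Rsad2 to Cmpk2 in TPM was 0.165, 0.185 and 0.243 in KO corneas, against 1.11, 0.677 and 0.387 in WT corneas. All knockout ratios were below all wild-type ratios, as was so for Rsad2 alone, and WT 3 was the nearest to them. A nearby gene on the same chromosome, the ubiquitin ligase gene Rnf144a, was at a log2 fold change of 0.46 (SE 0.55), with overlapping groups.

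Ifit2, an RNA-binding IFIT protein, did not follow Ifit1. It was at 5.54, 5.81 and 7.13 TPM in KO corneas, against 4.59, 5.50 and 7.66 TPM in WT corneas, with the wild-type libraries holding both the lowest and the highest value. The means were 6.16 ± 0.851 TPM in KO corneas, against 5.92 ± 1.58 TPM in WT corneas (SD, n = 3 each). The log2 fold change of -0.15 (SE 0.22) was smaller than its error, and it was 0.01 when scaled by library size alone, which moves the median of all genes to 0.19. The ratio of Ifit1 to Ifit2 in TPM was 1.42, 0.943 and 1.93 in KO corneas, against 5.87, 9.38 and 5.71 in WT corneas. The groups were separate, as they were for Ifit1 alone, so this ratio is a description.

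**Figure D3:**
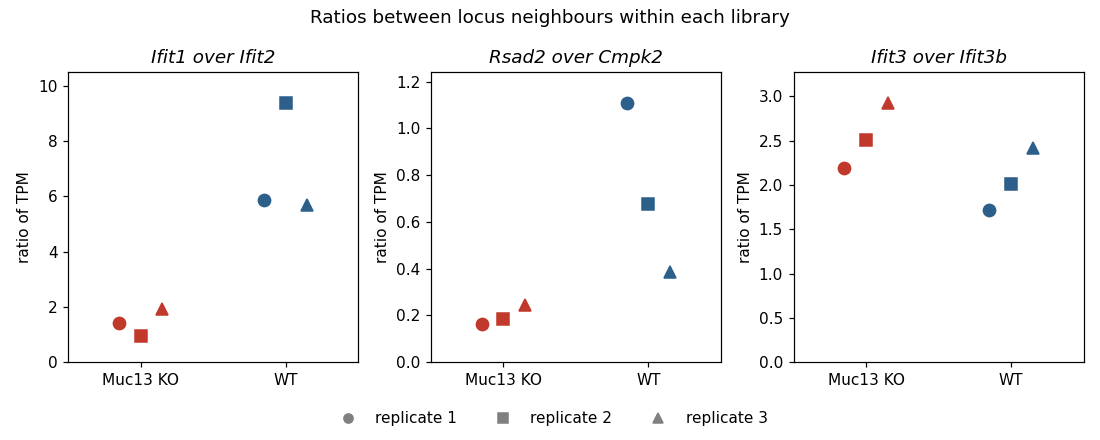
Ratio of the TPM of 2 genes of the same locus in each library, knockout in red and wild type in blue, with a symbol for each replicate number. Ifit1 over Ifit2 and Rsad2 over Cmpk2 are lower in all 3 knockout libraries, and Ifit3 over Ifit3b overlaps between the genotypes.

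Ifit3, which stabilises the binding of IFIT1 to RNA in human cells, and its near copy Ifit3b cannot be read as independent genes. Their coding sequences are identical in 1201 of 1212 aligned bases (99.1%), and 51.2% of the 50-base words of the Ifit3 transcript occur in that of Ifit3b. Their estimated counts are not whole numbers, as arises where shared reads are divided between genes. Ifit3 was at 46.8, 45.6 and 138 TPM in KO corneas, against 88.3, 184 and 194 TPM in WT corneas, and Ifit3b was at 21.4, 18.2 and 47.2 TPM in KO corneas, against 51.6, 91.7 and 80.1 TPM in WT corneas. KO 3 lay above WT 1 for Ifit3 in TPM and just below it in CPM (a ratio of 0.994), so the groups were separate in CPM and overlapped in TPM.

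The log2 fold changes were -1.22 (SE 0.51) for Ifit3 and -1.60 (SE 0.41) for Ifit3b. Added together, which removes the division of shared reads, the pair was at 65.1, 77.7 and 193 CPM in KO corneas, against 233, 347 and 275 CPM in WT corneas. The sums averaged 112 ± 70.5 CPM in KO corneas, against 285 ± 57.2 CPM in WT corneas (SD, n = 3 each). The ratio of Ifit3 to Ifit3b in TPM was 2.54 ± 0.368 in KO corneas, against 2.05 ± 0.354 in WT corneas (SD, n = 3 each), with overlapping libraries.

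Bst2, or tetherin, differed more among libraries of a genotype than between the genotypes. It was at 36.3, 38.1 and 123 TPM in KO corneas, against 44.0, 89.7 and 163 TPM in WT corneas. KO 3 lay above WT 1 and WT 2, and the log2 fold change was -0.74 (SE 0.59). Stroma markers (8 genes) summed to 2103, 3574 and 6376 CPM in KO corneas, against 827, 2048 and 3494 CPM in WT corneas. Of these sums Ptgds, which other eye tissues also express, held 629, 1454 and 5439 CPM in KO corneas, against 2.64, 184 and 1379 CPM in WT corneas. The other 7 stroma markers summed to 1474, 2120 and 937 CPM in KO corneas, against 825, 1864 and 2115 CPM in WT corneas. Of the knockout libraries they were lowest in KO 3, where Bst2 was highest, and in the wild type they stood in the same order as Bst2. Melanocyte and pigment markers (7 genes) summed to 927, 1788 and 6503 CPM in KO corneas, against 13.8, 427 and 2750 CPM in WT corneas. Within each genotype the libraries stood in the same order as for Bst2 in these sums, in the sum of all 8 stroma markers and in Ptgds. The part of these tissues in the Bst2 values was not tested. Bst2 also marks plasmacytoid dendritic cells in mice, whose marker Siglech had 15, 13 and 21 counts in KO corneas, against 0, 1 and 22 counts in WT corneas. WT 1 and WT 2, with the fewest Siglech counts, were also the libraries with the least retina marker RNA. The 8 markers of that cell type summed to 186 to 243 CPM in KO corneas and to 30.4 to 211 CPM in WT corneas. Pacsin1 and Tcf4, which neurons also express, held most of those counts. Of the 6 markers tested, 3 had a log2 fold change below 0, among them Ccr9 at -0.61 (SE 0.73). The part of these cells in the Bst2 values was not tested. Next to Bst2, Plvap, a gene of fenestrated vessels, was at a log2 fold change of 0.78 (SE 0.80), with overlapping groups. Mvb12a, an ESCRT subunit gene on the other side, was at -0.86 (SE 0.28). Unlike Bst2, Mvb12a had separate groups in CPM, with the knockout lower.

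In level per transcript length, the 8 genes kept nearly the same order in both genotypes. Ifit3 and Bst2 were highest, with 76.8 ± 53.1 and 65.9 ± 49.8 TPM in KO corneas, against 156 ± 58.4 and 98.8 ± 59.8 TPM in WT corneas (SD, n = 3 each). In the knockout the order went on with Ifit3b, Rtp4, Ifit1, Ifit2, Cmpk2 and Rsad2, and of all neighbours in that order only Cmpk2 and Rsad2 had ranges of mean ± SD that did not overlap. In the wild type it went on with Rtp4, Ifit3b, Ifit1, Cmpk2, Ifit2 and Rsad2, where Ifit3b and Ifit1, Ifit1 and Cmpk2, and Ifit2 and Rsad2 had separate ranges and the other neighbours did not differ beyond their spread. Ifit1 stood at 1.43 ± 0.493 times Ifit2 in KO corneas, against 6.99 ± 2.07 times in WT corneas (SD, n = 3 each). The 8 genes together summed to 136, 130 and 361 TPM in KO corneas, against 272, 530 and 579 TPM in WT corneas. KO 3 held the highest knockout CPM in 8 of the 8 genes. The share over all genes tested is not given here, and Ifit3 and Ifit3b share reads, so nothing is read from this count.

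Against WT 3 alone, all 3 knockout libraries were lower for each of the 8 genes, where 47.6% of all genes tested were lower in KO 1, 49.9% in KO 2, 53.5% in KO 3 and 12.7% in all 3. The medians of the 8 genes were -2.19, -1.85 and -0.79 on the log2 scale for KO 1, KO 2 and KO 3, where the medians over all genes tested were 0.02, 0.00 and -0.03. Ifit1 was at 0.171 (95% interval 0.145 to 0.201), 0.152 (0.128 to 0.181) and 0.329 (0.291 to 0.371) of WT 3. The corneal epithelium markers of KO 1 and KO 2 summed to more than those of WT 3, and those of KO 3 to less, and the part of epithelium in the Ifit1 values was not tested. Rsad2 was at 0.211 (0.134 to 0.321), 0.159 (0.0944 to 0.256) and 0.349 (0.246 to 0.488) of WT 3, the widest intervals relative to their values, since it had the fewest counts.

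Bst2 was at 0.208 (0.175 to 0.245), 0.280 (0.241 to 0.325) and 0.783 (0.708 to 0.867) of WT 3, and Cmpk2 at 0.494 (0.400 to 0.607), 0.329 (0.257 to 0.419) and 0.543 (0.445 to 0.661). Both were thus lower than WT 3 beyond counting error in all 3 knockout libraries, although their groups overlapped once WT 1 and WT 2 were included. Ifit3 in KO 3 was at 0.744 (0.704 to 0.786) of WT 3, and WT 1 at 0.748 (0.705 to 0.793). Ifit2 was at 0.689 (0.569 to 0.832), 0.923 (0.775 to 1.10) and 0.975 (0.824 to 1.15), so 1 of the 3 intervals excluded equality. The intervals are exact for the rounded counts and cover counting error only. They do not cover the division of shared reads, as between Ifit3 and Ifit3b, and a single wild-type library gives no spread between wild-type samples.

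Among the wild-type libraries, Ifit2 varied least in CPM, at 0.984 (0.822 to 1.18) of WT 3 in WT 1 and 0.891 (0.744 to 1.07) in WT 2. Ifit1 was at 1.01 (0.926 to 1.11) of WT 3 in WT 1 and at 1.46 (1.35 to 1.59) in WT 2. The interval of WT 1 thus included equality for Ifit1. Cmpk2 was at 0.426 (0.336 to 0.536) of WT 3 in WT 1 and 0.766 (0.636 to 0.921) in WT 2, and Bst2 at 0.442 (0.387 to 0.504) and 0.687 (0.615 to 0.767), so WT 3 was the highest wild-type library for both.

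**Figure D4:**
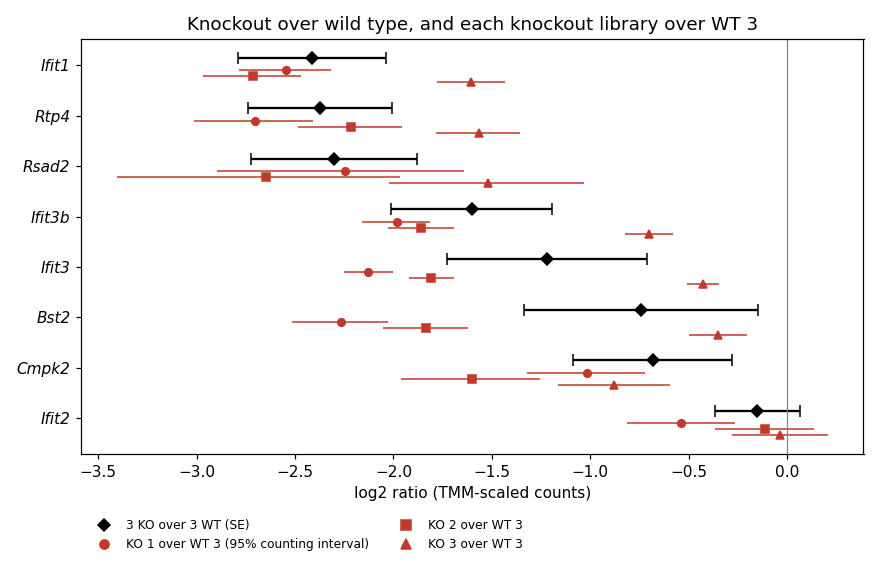
Log2 ratio of TMM-scaled counts for each gene, as the fit of 3 knockout over 3 wild-type libraries (black diamonds with SE) and as each knockout library over WT 3 (red, with 95% counting intervals). In the fit Ifit1 lies at -2.41, Rtp4 at -2.37, Rsad2 at -2.30 and Ifit2 at -0.15, and KO 3 lies closest to 0 for each gene.

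With edgeR's quasi-likelihood test adjusted over all 14983 genes (threshold 0.05), 0 genes were called (0%), so none of the 8 genes was, and their adjusted p ran from 0.501 to 0.654. An unadjusted p under 0.05 was reached by 656 genes, of which 548 (3.66% of genes tested) were lower in the knockout, and Ifit1, Ifit3b, Rsad2 and Rtp4 were 4 of these. The limma-voom fit called 0 genes, with 1595 at an unadjusted p under 0.05, and DESeq2 called 72. Of those, 59 were lower in the knockout (0.335% of the 17590 genes it tested), Ifit1, Rsad2 and Rtp4 among them. With WT 3 left out, edgeR called 5166 genes. Lower in the knockout were 1961 of them (12.9% of the 15166 genes then tested), and Ifit1, Ifit3b, Rsad2 and Rtp4 were 4 of these. Without KO 3 the median log2 fold change of the 8 genes was -2.03, with Ifit3 at -1.92 and Bst2 at -1.54.

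The other genes of the pathway were taken from lists that exclude these 8. These lists too were drawn up with earlier results of these data known, so their shares and medians are descriptions. Of 44 other antiviral effectors, 43 were tested, 0 were called in either direction, 32 had separate groups with the knockout lower (5.51% of all genes tested did), and the median was -1.51 on the log2 scale, against 0.02 over all genes tested. The GTPase gene Iigp1 was at 6.19 ± 3.08 CPM in KO corneas, against 46.4 ± 3.62 CPM in WT corneas (log2 fold change -2.90, SE 0.41), and the ubiquitin-like modifier Isg15 at 20.8 ± 5.02 CPM in KO corneas, against 91.7 ± 26.2 CPM in WT corneas (-2.14, SE 0.29; SD, n = 3 each). The oligoadenylate synthetase gene Oas3, which has shared reads, was at -2.67 (SE 0.34) and the helicase gene Ddx60 at -2.09 (SE 0.32). All 4, named for the smallest p in the list, had separate groups, as did Ifit1, Rtp4 and Rsad2.

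Upstream of the effectors, all 12 receptor and transducer genes were tested, 0 were called, 3 had separate groups with the knockout lower (5.51% of all genes tested), and the median was -0.59. The transcription factor gene Irf9 was at 31.8, 34.7 and 47.8 CPM in KO corneas, against 122, 137 and 83.6 CPM in WT corneas (log2 fold change -1.58, SE 0.27), with separate groups. Stat2, which encodes its partner in ISRE binding, was at -0.82 (SE 0.28), also with separate groups. The receptor chain gene Ifngr1 was at -0.82 (SE 0.34), with overlapping groups. Of 17 tested genes for the sensing of nucleic acids and the induction of interferon, 0 were called, 6 had separate groups with the knockout lower (5.51% of all genes tested), and the median was -0.90. Dhx58, Ifih1 and Ddx58, which encode RNA sensors of the RIG-I family, were at -1.81 (SE 0.25), -1.73 (SE 0.36) and -1.46 (SE 0.32), and the transcription factor gene Irf7 at -1.58 (SE 0.23).

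Of the 21 interferon ligand names listed, 1 (Ifnab) was analysed, and it had 1 count in KO 3 and 0 in the other 5 libraries, where a count of 0 allows up to 0.187 to 0.233 CPM. Of 10 negative regulators, a list that also holds Isg15, 0 were called, 3 had separate groups with the knockout lower (5.51% of all genes tested) and 1 with it higher (4.71% of all genes tested), and the median was -0.67. Usp18, which removes ISG15 and dampens the receptor, was at 7.89, 8.51 and 12.8 CPM in KO corneas, against 31.4, 46.1 and 28.1 CPM in WT corneas (-1.86, SE 0.31). Socs3, an inhibitor of cytokine receptor signalling, averaged 12.0 ± 3.65 CPM in KO corneas, against 3.52 ± 2.41 CPM in WT corneas (SD, n = 3 each), the opposite direction with separate groups (1.77, SE 0.60). Ptpn6, a phosphatase of immune receptors, was at -1.01 (SE 0.40), with overlapping groups. Around viperin's chemistry, 7 genes were tested, 0 were called, 2 had separate groups with the knockout lower (5.51% of all genes tested), and the median was -0.15. Ctps and Ctps2, the enzymes that make CTP, were at -0.62 (SE 0.26) and 0.56 (SE 0.29), both with overlapping groups. The nucleotide pyrophosphatase gene Dctpp1 was at -0.80 (SE 0.34) and Ciao2b, of the machinery that loads iron-sulphur clusters, at -0.28 (SE 0.19).

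**Figure D5:**
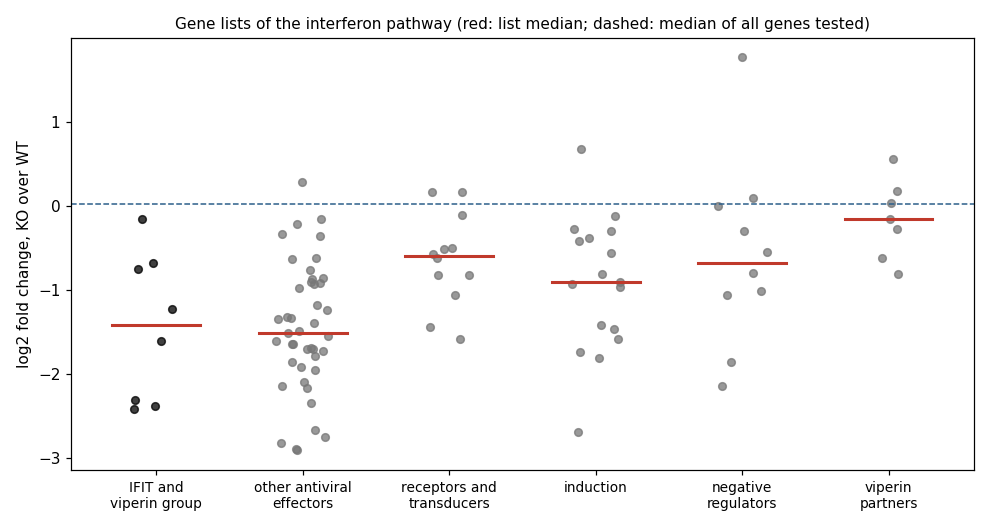
Log2 fold change, knockout over wild type, of each tested gene (points) in the 8 genes described here and in 5 lists of the interferon pathway, with each list's median in red and the median of all genes tested dashed. The medians run from -1.51 for other antiviral effectors to -0.15 for the viperin partners.

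The relatives of these genes were not uniform either. Ifit1bl1 and Ifit1bl2 lie within the IFIT cluster, and the coding sequence of Ifit1bl1 is identical to that of Ifit1 in 78.6% of aligned bases. Ifit1bl1 was more abundant than Ifit1 in each library, at 285, 133 and 33.9 TPM in KO corneas, against 173, 509 and 273 TPM in WT corneas. Its lowest library was KO 3, which was the highest knockout library for Ifit1 and had the least corneal epithelium marker RNA. In TPM its groups overlapped, and in CPM they were separate, with 339 CPM in KO 1 and 342 CPM in WT 3 (log2 fold change -1.35, SE 0.79). Ifit1bl2 was at -0.57 (SE 0.46), and Cmpk1, the cytosolic relative of Cmpk2, at -0.94 (SE 0.43), both with overlapping groups. Outside the IFIT family, the nearest neighbours of the cluster were the lysosomal lipase gene Lipa at 0.84 (SE 0.53) and the transporter gene Slc16a12 at -0.85 (SE 0.41). Over all 4 places, 36 protein-coding neighbours lay within 200 kb, 33 were tested, 0 were called, 4 had separate groups with the knockout lower (5.51% of all genes tested), and the median was -0.17.

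The pattern of the 8 genes over the 6 libraries was summarised as their median log2 CPM, centred on each gene's mean, and other genes were ranked by the root mean square difference from it. The nearest were the guanylate-binding protein gene Gbp3 (0.12 on the log2 scale), Trim30d (0.19, with shared reads), the immunity-related GTPase genes Igtp (0.21), Irgm1 (0.23) and Irgm2 (0.23), Xaf1 (0.26, with shared reads), Usp18 (0.27) and the class I gene H2-T24 (0.29). Among the 8 genes themselves, Ifit3b (0.13) and Ifit3 (0.19) were closest to the median pattern, and Ifit2 (0.82) farthest, with 1952 as its rank among all genes tested. The median includes each of these 8 genes, and Ifit3 and Ifit3b share reads, so their closeness to it is partly built in. The ranking is a description over 6 libraries.

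The macrophage and dendritic cell marker sums were higher in every knockout library than in any wild-type library, and only 3 of the 8 dendritic cell markers were tested. Macrophage markers (12 genes, none at 0 in any library) summed to 205, 183 and 286 CPM in KO corneas, against 87.2, 152 and 119 CPM in WT corneas. Dendritic cell markers (8 genes) summed to 9.02, 9.39 and 14.1 CPM in KO corneas, against 2.26, 7.11 and 7.11 CPM in WT corneas. Lyz2 alone held 111, 79.7 and 122 CPM of the macrophage sum in KO corneas, against 30.6, 42.3 and 24.3 CPM in WT corneas. The other 11 macrophage markers summed to 93.6, 103 and 165 CPM in KO corneas, against 56.6, 110 and 94.4 CPM in WT corneas, with overlapping groups. Of the 12 markers, 2 had separate groups with the knockout higher, and 3 had a log2 fold change below 0. The 7 B and plasma cell markers summed to 614, 615 and 131 CPM in KO corneas, against 2164, 1951 and 521 CPM in WT corneas, almost all of it from Sdc1, which corneal epithelium also expresses. T cell, natural killer cell and neutrophil markers summed to at most 5.11 CPM in any library. The part of these cells, and of corneal epithelium, in the values of the 8 genes and of Ifit1bl1 was not tested.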

How the data were processed

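The authors deposited 1 table of 18227 genes for 6 cornea libraries. Expected counts (estimated reads per gene) were deposited without normalization, and TPM values were deposited by the authors at the same total in every library. Genes with counts that are not whole are given as having shared reads, although no source states how reads were divided. The other 20 value columns were not used. The build is GRCm38 (mm10), per the submitters' processing notes. The aligner, counting program and strand setting were not given in the sources used here, while libraries came from total RNA with an mRNA kit, per the labels' protocols.

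Expected counts were rounded and tested in R 4.3.3 with edgeR 4.0.16 (quasi-likelihood test, genotype only, TMM, filterByExpr, robust dispersion, Benjamini-Hochberg adjusted p under 0.05) over all 14983 genes that passed the filter, all 8 described genes among them. Each SE is the size of the log2 value over the root of its F statistic. The script was tested on simulated counts. The 3 counts that a count of 0 allows are 0.185 to 0.233 CPM. No library repeats another (mean chi-square per gene of 43.6 or more). Alternatives were DESeq2 1.42.0, limma-voom (limma 3.58.1), other scalings and filters, a replicate block, each library left out, and WT 3 alone.

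Positions come from GENCODE M21 on GRCm38, which held 18181 of the 18227 gene IDs, and promoter sequences from RefSeq on GRCm38.p6. The genes and lists were chosen with earlier results of these data known. All members were named, with at most 4 genes of the smallest p per list, the 8 nearest patterns and the nearest tested neighbour on each side of a locus. Some genes that this rule names are not reported here. Marker genes serve to describe tissue content and fall outside that rule.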

Additional observations from a re-analysis of the deposited data

How the results depend on the processing

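The log2 fold changes of the 8 genes were recomputed in 104 combinations of gene and setting with a test, of which 96 kept their direction and their side of the threshold, 7 kept the direction and passed it, and 1 changed sign. Against WT 3 alone, which gave no test, all 8 stayed below 0. With library size alone, Ifit2 changed sign (0.0145), by the shift of all genes that this scaling makes. The count of genes called was 72 with the DESeq2 Wald test and ran from 0 to 5166 when each library was left out, where the highest value came without WT 3, and the cause was not tested. The median log2 fold change of the 8 genes ran from -2.03 (without KO 3) to -1.15, and the number of genes with separate groups from 5 to 6. It was 8 against WT 3 alone, where the highest knockout library has 1 wild-type library to clear, and 4 in TPM or with library size alone. Against WT 3 alone Cmpk2 was at -1.13, and the cause was not tested. The longer motif, the ISRE core followed by CT, was in 50% of the windows, against 0.271% of all, since it asks for more letters. With the replicate block, 0 genes were called and 2529 had an unadjusted p under 0.05, against 656 without it, and no call among the 8 genes changed. Same-numbered libraries correlated at 0.0904, 0.363 and 0.189 in their deviations from the group means, and 5 of 6 libraries correlated best with their own number, a hint from the data and not from the design. Rsad2, at 20 to 160 counts, is the gene whose precision depth limits most.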
